A study of Mus musculus with 6 samples.

Results

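The genes described here belong to the endothelium, the cell layer that lines blood vessels. They were chosen by name, with earlier results of these data known: 44 receptors, ligands, junction and surface proteins, effectors, scavenger receptors and transcription factors. Of these, 41 had a row in the deposited table of 12065 genes. Lyve1, Gata2 and Angpt2 were not measured. RNA was taken from the distal tips of mouse limb buds, and each of the 6 libraries was a pool of tips from 2 embryos of the same stage and genotype. The Meis2 overexpression group held 3 pools, at 37, 38 and 39 somites, of genotype HoxB6CreER;R26Meis2a-IRES-EYFP/Meis2a-IRES-EYFP. The control group held 3 pools at the same stages, of genotype R26Meis2a-IRES-EYFP/Meis2a-IRES-EYFP, which carried the inducible Meis2a transgene without the Cre. All embryos came from mothers given 0.8 mg of 4-hydroxy-tamoxifen by intraperitoneal injection at E8.3, so an effect of the transgene and an effect of the Cre itself cannot be told apart. HoxB6CreER is a tamoxifen-inducible Cre of the lateral plate mesoderm, which gives rise to limb mesenchyme.

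Limb vessels form as a plexus within the mesenchyme, behind a vessel-poor zone under the ectoderm. Their cells take up VEGF-A, made by neighbouring tissue, through KDR, the main signalling VEGF receptor, while FLT1 binds the same ligand and limits its supply. TIE receptors, the apelin receptor, endoglin with ALK1, and NOTCH with DLL4 shape growth, stability and branching. VE-cadherin and PECAM1 hold the cells together, and ETS factors such as ERG and FLI1 and the SOXF factors SOX7, SOX17 and SOX18 maintain the endothelial programme. MEIS2 is a TALE homeobox factor of the proximal limb.

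The promoters of Kdr and Stab2 are shown because these were, of the genes called, the ones with an entry in the RefSeq promoter table of build GRCm38.p6; Sox7 was the other gene called. Each runs from 250 bases before the annotated start to 50 after it, 5′ to 3′ on the gene's strand. The Kdr window lies at chr5:75978406-75978705 on the minus strand, and its capitals mark an ETS core, GGAAGT, read on the reverse strand. The Stab2 window lies at chr10:87007893-87008192 on the minus strand, and its capitals mark a MEIS core, TGACAG, read on the reverse strand.
Kdr: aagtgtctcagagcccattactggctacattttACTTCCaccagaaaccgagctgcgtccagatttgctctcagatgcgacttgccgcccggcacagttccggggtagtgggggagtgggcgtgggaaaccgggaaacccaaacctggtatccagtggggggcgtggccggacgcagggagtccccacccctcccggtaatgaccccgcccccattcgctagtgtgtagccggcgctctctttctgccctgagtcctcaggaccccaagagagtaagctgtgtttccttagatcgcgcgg
Stab2: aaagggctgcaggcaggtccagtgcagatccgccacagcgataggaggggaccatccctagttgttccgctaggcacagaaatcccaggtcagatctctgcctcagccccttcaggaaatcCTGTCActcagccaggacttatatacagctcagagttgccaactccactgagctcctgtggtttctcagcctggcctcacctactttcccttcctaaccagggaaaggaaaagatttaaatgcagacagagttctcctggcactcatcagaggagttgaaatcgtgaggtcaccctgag
The table held 26 promoters of 21 of the measured genes. On either strand, GGAAGT stood in 6 of the 26, or 23.1%, against 23.8% of all 32851 promoters of this length. TGACAG stood in 8 of the 26, or 30.8%, against 19.2% of all promoters. The 8 belonged to Cldn5, Dll4, Egfl7, Erg, Notch4, Stab1, Stab2 and Tek. An Egfl7 promoter held both motifs, at separate places. A match of letters does not show binding, and no binding was measured.

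Depth was 7622698 to 15395447 recovered reads per library, and 3 reads, the limit read from a count of 0, corresponded to 0.194 to 0.388 CPM, the deposited read counts scaled to the effective library size. Meis2 stood at 41.3, 33.4 and 28.2 CPM in the overexpression pools at 37, 38 and 39 somites, against 20.6, 15.3 and 13.8 CPM in the controls, a log2 fold change of 1.01 (SE 0.16, limma adjusted p = 0.0185). Here and below, log2 fold changes are overexpression minus control on log2(CPM + 1), which understates the change of low genes, and adjusted p-values are Benjamini-Hochberg values over all 12065 genes, with a gene called under 0.05. In GENCODE M21, 12 of the 41 genes have exons that overlap another gene: Eng, Acvrl1, Dll4, Ramp2, Cd34, Ecscr, Egfl7, Nos3, Rasip1, Stab1, Stab2 and Sox17. Reads there may belong to either gene. Values with ± are means and SD over 3 pools, which differ in stage. Limma p-values set a difference against the spread between pools, moderated toward that of other genes (6.03 prior and 4 residual degrees of freedom). Without somite number in the fit, this spread includes stage. The tissue expressed limb mesenchyme markers, with 1918 to 2185 CPM summed over 12 of 12 listed markers in the overexpression pools and 1991 to 2327 CPM in the controls.

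The endothelial genes were mostly higher in the limb tips that overexpressed Meis2, by small amounts. Kdr and Sox7 rose, as did Stab2, which had a row only through the overexpression pools. A fold change above 0 was found for 37 of the 41 measured genes, and for 36 of 40 without Stab2, against 50.0% of all genes. The genes, and the other lists below, were chosen with earlier results of these data known. Shares set against all genes therefore describe these lists and do not test them. The summed level of the 41 genes was 863, 883 and 833 CPM in the overexpression pools, against 715, 723 and 779 CPM in the controls, and the groups did not overlap. Pecam1, the marker used most often to draw vessels, differed little, and Lmo2 stood lower at each stage. In bulk tissue a difference in the number of endothelial cells and a difference in RNA per cell cannot be told apart.

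By limma, 3 of the 41 genes were called higher, against 0.787% of all genes, and 0 were called lower, against 0.680%. At an unadjusted p under 0.05 there were 19 higher, against 8.12% of all genes, and 1 lower, Lmo2, against 7.77%. edgeR called 2 higher, Kdr and Stab2, and 0 lower, and DESeq2 called 3 higher, Kdr, Stab2 and Ets1, and 1 lower, Lmo2. All 3 overexpression pools lay above all 3 control pools for 19 genes, 46.3% of the 41, against 10.4% of all genes, and the reverse held for 0 of the 41, against 10.4%. The median log2 fold change was 0.26, against -0.00 over all genes, and 16 of the 41 lay above 0.32, the 95th percentile of all genes. Set against the mean of the controls, the median gene stood at 0.27, 0.31 and 0.18 on the log2 scale in the overexpression pools and at -0.01, -0.06 and 0.03 in the control pools. Stab2 met the apparent minimum of the table, about 2 CPM in 3 libraries, through the overexpression pools alone. Without Stab2 there were 2 of 40 called higher, 18 of 40 higher at an unadjusted p under 0.05, 18 of 40 with separate groups and a median of 0.26.

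Both groups had 1 pool per stage, and a fit with somite number as a second term changed the count of calls. It called 5 genes higher, against 1.47% of all genes, and 1 lower, against 1.35%. Without Stab2, which had a row only through the overexpression pools, 4 of 40 were called higher. Ptprb and Fli1 joined Kdr, Stab2 and Sox7, at 0.0277 and 0.0443 as limma adjusted p-values, and Lmo2 was the lower gene, with limma adjusted p = 0.00991. Leaving out a pool changed the calls of the fit without stage. Limma called 0 of the 41 higher without the 37-somite or the 38-somite overexpression pool, and 0 without the 37-somite or the 38-somite control pool, with Kdr at adjusted p of 0.0511 to 0.0778 in these fits. It called Kdr alone without the 39-somite control pool, and Kdr and Fli1 without the 39-somite overexpression pool. Over these fits, Kdr kept a log2 fold change of 0.43 to 0.52.

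**Figure D1:**
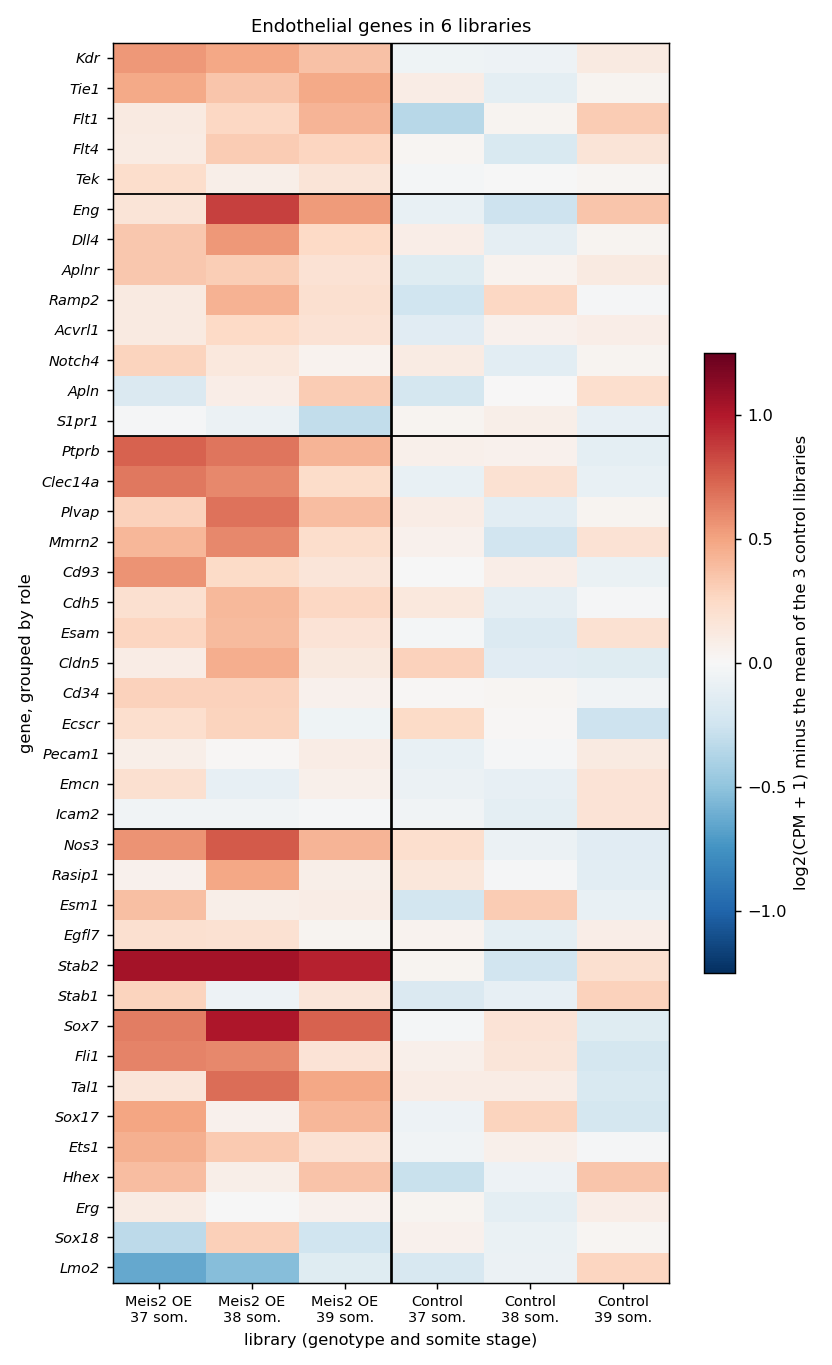
Level of 41 endothelial genes in 6 libraries, as log2(CPM + 1) minus the gene's mean over the 3 control libraries; columns are libraries by genotype and somite stage (som.), rows are genes grouped by role, and red stands for higher. The 3 overexpression columns are red for most genes, with medians of 0.27, 0.31 and 0.18, while Lmo2 is blue in all 3.

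Among the receptors for VEGF and angiopoietins, all 5 measured genes had a fold change above 0, and Kdr rose. Kdr stood at 78.2, 75.2 and 69.0 CPM in the overexpression pools, against 51.3, 51.1 and 58.0 CPM in the controls. The lowest overexpression pool lay above the highest control pool. Its mean was 74.1 ± 4.69 CPM in overexpression and 53.5 ± 3.89 CPM in controls, a log2 fold change of 0.46 (SE 0.08, limma adjusted p = 0.0189), and it passed in 13 of 18 alternative settings, with adjusted p of 0.00026 to 0.0778. Here, and for Stab2 and Sox7 below, the alternative without a filter repeated the main fit, because the filter removed 0 genes. Tie1, an orphan receptor that modulates TEK, stood at 18.5, 16.8 and 18.6 CPM in the overexpression pools, against 13.9, 11.9 and 13.4 CPM in the controls. The groups were separate, but the log2 fold change of 0.43 (SE 0.10) did not pass, with limma adjusted p = 0.0705. Tek, the angiopoietin receptor, averaged 18.9 ± 0.984 CPM in overexpression and 16.9 ± 0.290 CPM in controls, and its groups were separate too. Flt1 averaged 25.3 ± 2.83 CPM in overexpression and 21.2 ± 5.07 CPM in controls, and Flt4, the receptor for VEGF-C and VEGF-D, 14.4 ± 1.203 CPM in overexpression and 12.1 ± 1.60 CPM in controls. The Flt1 and Flt4 groups overlapped.

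The other vascular receptors and ligands held no called gene by limma, edgeR or DESeq2, with 3 of 8 at an unadjusted p under 0.05, all higher. Of the 8, 7 had a fold change above 0, and 3 had separate groups, Aplnr, Dll4 and Acvrl1. Over all genes, 8.12% were higher at an unadjusted p under 0.05, and 10.4% had separate higher groups. Aplnr, the apelin receptor, stood at 33.7, 33.0 and 30.2 CPM in the overexpression pools, against 23.7, 27.3 and 28.6 CPM in the controls, with a log2 fold change of 0.28 (SE 0.09, limma adjusted p = 0.186). Dll4, the NOTCH ligand of tip cells and arteries, stood at 7.67, 8.93 and 7.11 CPM in the overexpression pools, against 6.25, 5.32 and 5.99 CPM in the controls, with 0.38 (SE 0.13, limma adjusted p = 0.211). For both genes every overexpression pool was above every control pool. Acvrl1, which encodes ALK1, averaged 7.12 ± 0.388 CPM in overexpression and 6.18 ± 0.597 CPM in controls. Its co-receptor gene Eng averaged 19.4 ± 4.81 CPM in overexpression and 13.2 ± 3.16 CPM in controls, the widest difference of the role on the log2 scale, 0.51 (SE 0.19). The Eng groups overlapped, because the 37-somite overexpression pool was below the 39-somite control pool. Ramp2, a co-receptor for adrenomedullin, averaged 12.5 ± 1.56 CPM in overexpression and 10.4 ± 2.03 CPM in controls, and it shares a transcript sequence with Vps25, so its value is uncertain. Notch4, a NOTCH receptor of endothelium, averaged 9.87 ± 0.909 CPM in overexpression and 8.80 ± 0.783 CPM in controls. These groups overlapped. Apln, the apelin ligand of tip cells, averaged 16.4 ± 2.999 CPM in overexpression and 15.5 ± 2.45 CPM in controls. S1pr1, a receptor for sphingosine 1-phosphate that limits sprouting, averaged 8.57 ± 1.01 CPM in overexpression and 9.45 ± 0.628 CPM in controls, the only gene of this role with a fold change below 0.

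Junction and surface proteins were the largest role, with 13 genes, 12 of them with a fold change above 0 and 7 with separate groups. None was called by limma, edgeR or DESeq2, and 8 had an unadjusted p under 0.05, all higher, against 8.12% of all genes. Separate higher groups were found for 10.4% of all genes. Cdh5, which encodes VE-cadherin, stood at 57.9, 66.9 and 60.4 CPM in the overexpression pools, against 55.1, 46.3 and 49.9 CPM in the controls. The Cdh5 groups were separate, with a log2 fold change of 0.29 (SE 0.08, limma adjusted p = 0.14). Pecam1 stood at 43.7, 41.8 and 44.3 CPM in the overexpression pools, against 38.7, 41.2 and 44.8 CPM in the controls. The Pecam1 groups overlapped, with a log2 fold change of 0.06 (SE 0.08, limma adjusted p = 0.732). The smallest p of the role belonged to Ptprb, which encodes VE-PTP, the phosphatase that dampens TEK and KDR signalling. It stood at 10.4, 9.84 and 8.15 CPM in the overexpression pools, against 6.16, 6.11 and 5.27 CPM in the controls, with separate groups and a log2 fold change of 0.61 (SE 0.13, limma adjusted p = 0.0587). Plvap, which encodes the protein of fenestral diaphragms, stood at 19.7, 26.0 and 21.1 CPM in the overexpression pools, against 17.0, 14.5 and 16.4 CPM in the controls, again with separate groups (0.45, SE 0.12, limma adjusted p = 0.107).

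Among the remaining surface genes, 4 had separate groups and none passed. Clec14a, a C-type lectin receptor of endothelium, averaged 7.98 ± 1.38 CPM in overexpression and 5.34 ± 0.737 CPM in controls. Cd93, a related receptor, averaged 37.5 ± 5.94 CPM in overexpression and 29.7 ± 1.78 CPM in controls. Mmrn2, an extracellular ligand of both receptors, averaged 11.7 ± 1.69 CPM in overexpression and 8.60 ± 1.40 CPM in controls. All 3 had separate groups, with limma adjusted p of 0.167, 0.201 and 0.215 in that order. Cd34, a sialomucin also found on blood progenitors, averaged 58.7 ± 5.40 CPM in overexpression and 50.6 ± 1.27 CPM in controls, with separate groups. The other surface genes overlapped between groups: Esam, a junction adhesion molecule, averaged 13.4 ± 1.15 CPM in overexpression and 10.9 ± 1.55 CPM in controls. Cldn5, the main endothelial claudin, averaged 6.08 ± 1.02 CPM in overexpression and 5.08 ± 1.10 CPM in controls. Ecscr averaged 6.70 ± 0.889 CPM in overexpression and 6.003 ± 1.204 CPM in controls. Emcn, the sialomucin of veins and capillaries, and Icam2, an adhesion molecule, had similar means in both groups. Emcn averaged 21.3 ± 2.38 CPM in overexpression and 20.5 ± 2.26 CPM in controls, and Icam2 5.36 ± 0.0653 CPM in overexpression and 5.54 ± 0.718 CPM in controls.

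The log2 fold changes of the 3 marker genes were 0.46 for Kdr, 0.29 for Cdh5 and 0.06 for Pecam1, and their ratios were compared within each pool. The ratio of Kdr to Pecam1 was 1.79, 1.80 and 1.56 in the overexpression pools, against 1.33, 1.24 and 1.29 in the controls. The groups did not overlap, with means of 1.72 ± 0.137 in overexpression and 1.29 ± 0.0423 in controls (exact permutation test, two-sided p = 0.1, the smallest that 3 pools against 3 allow). The ratio of Kdr to Cdh5 averaged 1.21 ± 0.126 in overexpression and 1.07 ± 0.119 in controls (exact permutation p = 0.3). The ratio of Cdh5 to Pecam1 averaged 1.43 ± 0.149 in overexpression and 1.22 ± 0.175 in controls (exact permutation p = 0.3). Adjusted over the 3 ratios, each exact permutation p was 0.3, so unequal change between the markers was not shown at this number of pools.

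Of the 4 effectors, all had a fold change above 0, and none was called by limma, edgeR or DESeq2, with 1 at an unadjusted p under 0.05. That gene was Nos3, endothelial nitric oxide synthase, and 8.12% of all genes were higher at that p. Nos3 stood at 5.71, 6.73 and 5.11 CPM in the overexpression pools, against 4.26, 3.32 and 3.11 CPM in the controls, with separate groups and a log2 fold change of 0.59 (SE 0.16, limma adjusted p = 0.119). Its exons overlap those of Atg9b on the opposite strand, and the library kit does not mark strand. Egfl7, a secreted factor of the vessel matrix and host of a microRNA, stood at 27.0, 26.9 and 24.1 CPM in the overexpression pools, against 24.2, 21.4 and 24.8 CPM in the controls. The Egfl7 groups overlapped. Rasip1, a RAS-binding protein needed for vessel lumens, averaged 9.11 ± 1.76 CPM in overexpression and 7.72 ± 0.843 CPM in controls, and Esm1, a proteoglycan of tip cells, 4.14 ± 0.623 CPM in overexpression and 3.57 ± 0.937 CPM in controls, both with overlapping groups.

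The scavenger receptors stabilin-1 and stabilin-2, known from sinusoidal and lymphatic endothelium, had unlike values. Stab2 rose at a very low level, but it had a row only because all 3 overexpression pools reached about 2 CPM, which 0 of the 3 control pools did. A gene that has a row by this route had to differ, so its fold change and p describe the gene and support nothing about the list. It stood at 2.71, 2.72 and 2.52 CPM in the overexpression pools, against 0.852, 0.523 and 1.08 CPM in the controls. These levels rest on 29, 21 and 39 reads in the overexpression pools and on 9, 6 and 9 reads in the controls. The ratio of the means was 3.24, and the log2 fold change was 1.02 (SE 0.19, limma adjusted p = 0.033), with adjusted p of 0.0164 to 0.129 over 17 alternative settings, 11 of which passed. The log2 value was 1.63 with a pseudocount of 0.1 and 0.40 with one of 5, and it was 1.72 by both edgeR and DESeq2 on the recovered reads. Exons of Stab2 overlap those of Gm16268 on the opposite strand. Stab1 stood at 23.6, 18.4 and 21.5 CPM in the overexpression pools, against 16.9, 17.8 and 23.7 CPM in the controls, with overlapping groups and a log2 fold change of 0.12 (SE 0.14, limma adjusted p = 0.689). The difference between the 2 genes was not tested.

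**Figure D2:**
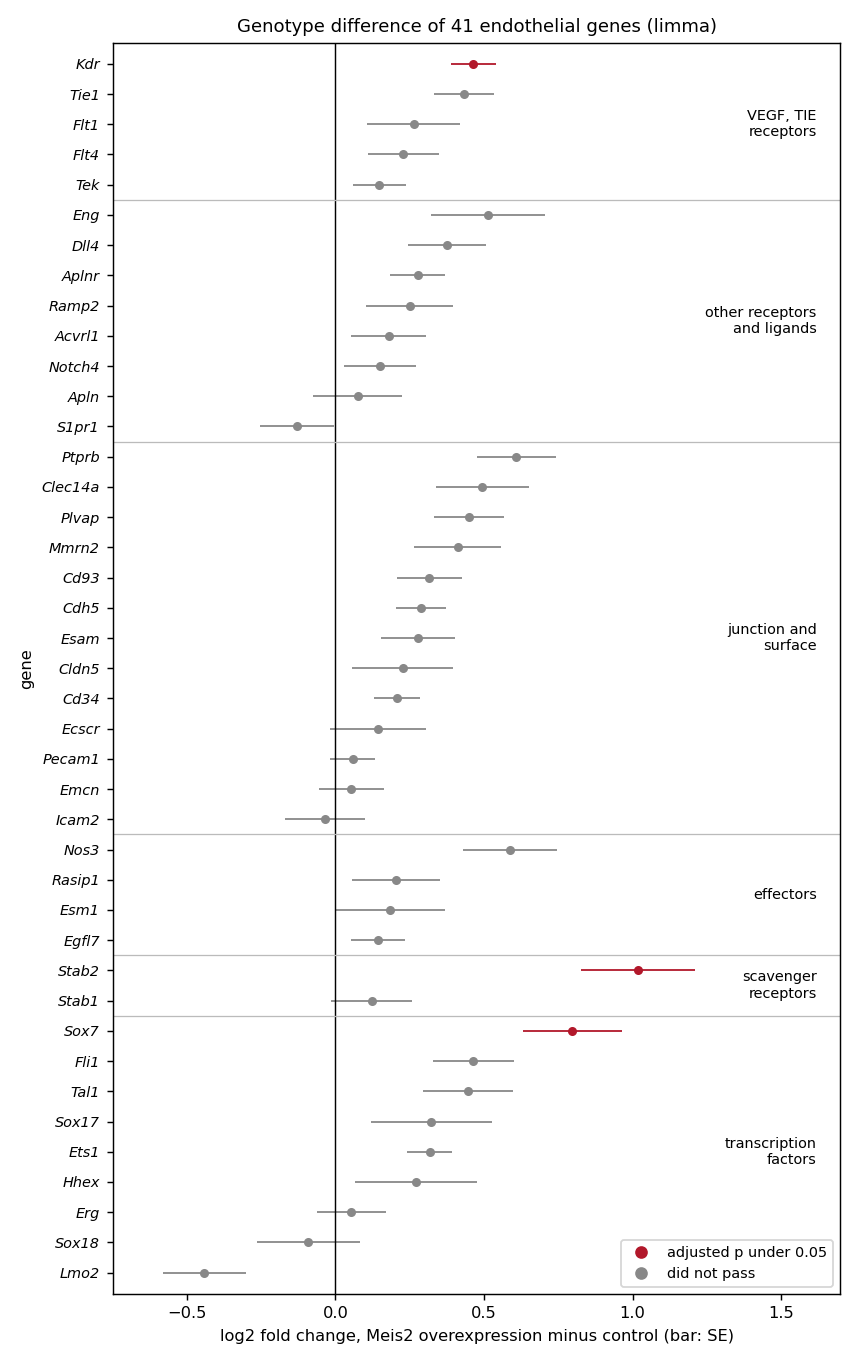
Log2 fold change of 41 endothelial genes, Meis2 overexpression minus control, with points at the limma estimate, bars of 1 SE, and red for adjusted p under 0.05. Kdr, Stab2 and Sox7 are red, at 0.46, 1.02 and 0.80, and Lmo2 is the point farthest to the left, at -0.44.

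Of 9 measured transcription factors, Sox7 rose and 7 had a fold change above 0, with separate groups for Sox7, Fli1, Ets1 and Tal1. Over all genes, 10.4% had separate higher groups. Sox7 stood at 4.49, 6.09 and 4.85 CPM in the overexpression pools, against 2.46, 2.97 and 2.16 CPM in the controls. Its mean was 5.14 ± 0.837 CPM in overexpression and 2.53 ± 0.409 CPM in controls, a ratio of 2.03 and a log2 fold change of 0.80 (SE 0.17). The limma adjusted p was 0.0498, close to the threshold, and it ranged from 0.039 to 0.203 over 17 alternative settings, 6 of which passed. The other SOXF genes were not called. Sox17 averaged 2.57 ± 0.555 CPM in overexpression and 1.86 ± 0.521 CPM in controls, and Sox18 averaged 5.93 ± 1.72 CPM in overexpression and 6.24 ± 0.357 CPM in controls. Sox7 was thus the SOXF gene that passed, while its difference from Sox17 and Sox18 was not tested.

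Among the ETS factors, Ets1 stood at 87.4, 80.2 and 72.5 CPM in the overexpression pools, against 61.8, 66.8 and 63.0 CPM in the controls. The Ets1 groups were separate, with a log2 fold change of 0.32 (SE 0.08, limma adjusted p = 0.081). Fli1 averaged 33.5 ± 5.75 CPM in overexpression and 23.9 ± 3.26 CPM in controls, also with separate groups (0.46, SE 0.14, limma adjusted p = 0.145). Erg averaged 8.53 ± 0.364 CPM in overexpression and 8.20 ± 0.694 CPM in controls, and its groups overlapped. Tal1, a bHLH factor of blood and endothelium, averaged 14.1 ± 2.81 CPM in overexpression and 10.02 ± 1.21 CPM in controls, with separate groups, and Hhex, a homeobox factor of early endothelium, 2.70 ± 0.435 CPM in overexpression and 2.10 ± 0.698 CPM in controls, with overlapping groups.

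Lmo2, an adaptor that joins TAL1 and GATA factors, had the opposite sign to most of the genes, and it is singled out here after its values were seen. It stood at 58.5, 62.8 and 82.3 CPM in the overexpression pools at 37, 38 and 39 somites, against 79.6, 87.2 and 110 CPM in the controls. At each stage the overexpression pool was lower, by 0.44, 0.47 and 0.42 on the log2 scale, yet the groups overlapped because the level was higher at 39 somites in both. Without stage in the fit the log2 fold change of -0.44 (SE 0.14) did not pass, with limma adjusted p = 0.168, and with stage it fell, as given above, with an SE of 0.07. Which cells of the bulk tissue the Lmo2 RNA came from was not tested, so its fall is not assigned to endothelium. Per kilobase of the longest coding transcript, Lmo2 had the highest level of the 41 genes, 39.8 CPM per kb in overexpression and 54.2 CPM per kb in controls, where Cdh5 had 15.5 CPM per kb in overexpression and 12.6 CPM per kb in controls. On the same scale Stab2 was lowest, at 0.322 CPM per kb in overexpression and 0.0994 CPM per kb in controls. Sox7 was also low, at 1.56 CPM per kb in overexpression and 0.766 CPM per kb in controls, while Kdr stood at 12.5 CPM per kb in overexpression and 9.03 CPM per kb in controls.

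The genotype difference had the same sign at every stage for most of the genes. At the same somite number the overexpression pool was higher for 35, 36 and 31 of the 41 genes at 37, 38 and 39 somites. It was higher at all 3 stages for 26 genes, Stab2 among them, 63.4% of the 41, against 18.9% of all genes. It was lower at all 3 for 2 genes, S1pr1 and Lmo2, against 19.0% of all genes. The median same-stage difference was 0.27, 0.27 and 0.19 on the log2 scale, in the order of the stages. The slope per somite, fitted with genotype, was positive for 18 genes and negative for 23, and limma called 0 of them, against 0.257% of all genes with higher and 0.0995% with lower levels at later stages. At an unadjusted p under 0.05 there were 5, against 6.28% of all genes, and edgeR called 0 and DESeq2 called 1, Lmo2. These 5 were Lmo2, Flt1 and Apln, with slopes of 0.24, 0.25 and 0.23 per somite, and Fli1 and Ecscr, with slopes of -0.18 and -0.19. For Flt1 this was 22.5, 25.1 and 28.2 CPM in the overexpression pools at 37, 38 and 39 somites, against 16.1, 21.3 and 26.2 CPM in the controls. With 1 pool per stage and genotype, a stage and its pool cannot be told apart. Whether the slope differed between genotypes was tested by an interaction term, which limma, edgeR and DESeq2 called for 0 of the 41 genes. At an unadjusted p under 0.05 there were 0 of the 41, against 1.99% of all genes. Kdr had the values of 69.0 CPM in overexpression and 58.0 CPM in controls at 39 somites, its smallest same-stage difference, but the difference in slope of -0.18 (SE 0.10) did not pass the limma test, with an adjusted p of 1.

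**Figure D3:**
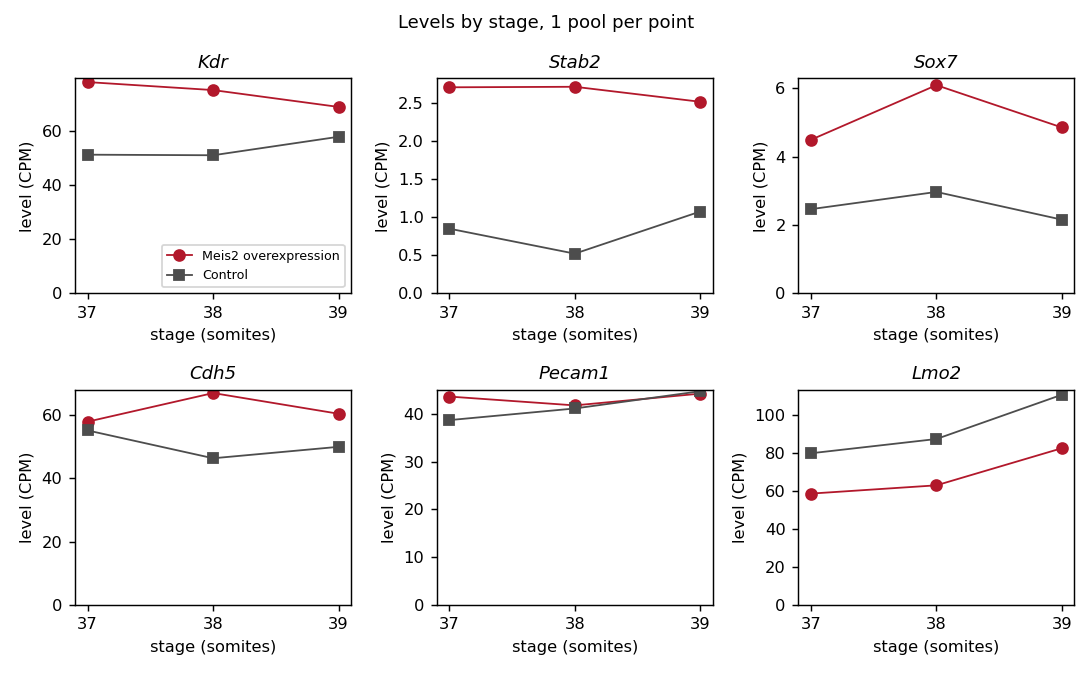
Level in CPM of Kdr, Stab2, Sox7, Cdh5, Pecam1 and Lmo2 against somite number, with 1 pool per point, circles for Meis2 overexpression and squares for control. The lines of Kdr, Stab2 and Sox7 do not meet, the Pecam1 lines cross between 38 and 39 somites, and the Lmo2 line lies lower in overexpression at each stage and ends highest in both genotypes.

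Genes that the 41 do not include were described in the same way. For comparison with every list below, limma called 0.787% of all genes higher and 0.680% lower. At an unadjusted p under 0.05, 8.12% of all genes were higher and 7.77% lower. Of 35 other endothelial genes, 27 were measured and 21 had a fold change above 0, with a median of 0.22. Separate higher groups were found for 7, or 25.9%, and separate lower groups for 1, or 3.7%, against 10.4% of all genes each way. The lower gene was F2r, at 205 ± 8.68 CPM in overexpression and 218 ± 0.934 CPM in controls (limma adjusted p = 0.447). Limma and edgeR called 0 and DESeq2 called 1 of them, with 7 at an unadjusted p under 0.05, all higher. Their summed level was 683 to 749 CPM in overexpression and 626 to 667 CPM in controls. Plxnd1, the endothelial semaphorin receptor, averaged 84.1 ± 14.97 CPM in overexpression and 60.0 ± 7.33 CPM in controls (limma adjusted p = 0.107). Pcdh12, a protocadherin of endothelial junctions, averaged 12.3 ± 1.65 CPM in overexpression and 9.19 ± 0.770 CPM in controls (limma adjusted p = 0.186).

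The ligands and partners of these receptors were spread around 0. Of 20 VEGF, angiopoietin and TGF-beta pathway genes, 17 were measured, 10 had a fold change above 0, and the median was 0.04. Limma, edgeR and DESeq2 called 0, with 3 higher and 2 lower at an unadjusted p under 0.05. Groups were separate for 3 higher and 3 lower genes, 17.6% each way, against 10.4% of all genes each way. The higher ones were Tgfb1, Tgfbr2 and Figf, and the lower ones Smad6 (-0.295), Hif1a (-0.138) and Smad5 (-0.101). Vegfa had a log2 fold change of -0.140 with overlapping groups. Figf, Smad6, Hif1a, Smad5 and Vegfa are named after their values were seen. Tgfbr2, the type II TGF-beta receptor, averaged 27.0 ± 2.00 CPM in overexpression and 20.4 ± 0.704 CPM in controls (limma adjusted p = 0.0622, and 0.0405 with somite number), and the ligand gene Tgfb1 averaged 5.28 ± 0.608 CPM in overexpression and 3.45 ± 0.496 CPM in controls (limma adjusted p = 0.16). The basement membrane list, with 9 of 9 measured, had a median of 0.06 and 0 calls by limma, edgeR and DESeq2, with 2 higher and 2 lower at an unadjusted p under 0.05. Its smallest p belonged to Lama4, at 54.6 ± 1.31 CPM in overexpression and 46.4 ± 0.567 CPM in controls, and Lamb1, at 246 ± 7.91 CPM in overexpression and 281 ± 11.4 CPM in controls.

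Arterial, venous and lymphatic lists were short, and which cells of the bulk tissue expressed these genes was not tested. Of 11 arterial genes 8 were measured, 4 with a fold change above 0, and the median was -0.04. Limma and edgeR called 0 and DESeq2 called 1 lower, with 2 higher and 2 lower at an unadjusted p under 0.05. Hey1, a NOTCH target, averaged 83.8 ± 13.4 CPM in overexpression and 122 ± 15.4 CPM in controls (limma adjusted p = 0.0616, and 0.00217 with somite number). Sema3g, a semaphorin of arteries, averaged 5.11 ± 1.65 CPM in overexpression and 3.10 ± 0.339 CPM in controls (limma adjusted p = 0.242). With somite number limma called 2 of the list lower, against 1.35% of all genes. These were Hey1 and Jag1, a NOTCH ligand named here after its values were seen. Jag1 averaged 84.7 ± 32.1 CPM in overexpression and 131 ± 42.3 CPM in controls, a log2 fold change of -0.65 (limma adjusted p = 0.298, and 0.0014 with somite number). Gja5, also named after its values were seen, went the other way. It averaged 4.86 ± 2.59 CPM in overexpression and 2.47 ± 0.508 CPM in controls, a log2 fold change of 0.68 (limma adjusted p = 0.258, and 0.127 with somite number). The groups were separate for 1 higher gene of the list, Gja5, and 1 lower gene, Hey1. The venous genes Ephb4 and Nr2f2 had log2 fold changes of 0.20 and -0.00. Of 4 lymphatic genes, Pdpn, which other cells express too, averaged 11.7 ± 0.744 CPM in overexpression and 15.4 ± 1.22 CPM in controls, and Reln averaged 5.90 ± 0.572 CPM in overexpression and 5.29 ± 0.503 CPM in controls, while the defining factor Prox1 was not measured. None of these venous and lymphatic genes was called by limma, edgeR or DESeq2, with 1 higher and 1 lower at an unadjusted p under 0.05.

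Blood cells travel in the vessels, and erythroid markers stood higher in the overexpression pools, as most of the endothelial genes did. Of 21 erythroid symbols 18 were measured, with 17 of 18 above 0 and a median log2 fold change of 0.58. Limma called 4 of the 18 higher, Hbb-b2, Hemgn, Slc4a1 and Hba-x, against 0.787% of all genes. The count called higher was 3 by edgeR, 7 by DESeq2 and 8 by limma with somite number, the last against 1.47% of all genes. Their summed level was 4780 to 5560 CPM in overexpression and 2919 to 4135 CPM in controls, and the groups did not overlap. The interaction term had an unadjusted limma p under 0.05 for 10 of the 18 erythroid genes, with a median of 0.32. It had one for 0 of the 41 endothelial genes, with a median of -0.08, and for 1.99% of all genes. After adjustment limma called 0 in either list, and whether the stage patterns of the 2 lists differ was not tested. Hbb-b2, an adult beta globin gene, averaged 46.0 ± 8.88 CPM in overexpression and 21.3 ± 6.08 CPM in controls (limma adjusted p = 0.0236), and near-identical globin genes can share its reads. Mural cells, which wrap vessels, had 7 of 13 markers measured, 5 of them above 0, a median of 0.34 and sums of 291 to 349 CPM in overexpression and 244 to 282 CPM in controls. For the mural list limma and edgeR called 0 and DESeq2 called 1 higher, with 4 at an unadjusted p under 0.05, all higher. Pdgfrb averaged 144 ± 14.7 CPM in overexpression and 113 ± 9.28 CPM in controls (limma adjusted p = 0.0864), and limb mesenchyme expresses it too, while Mylk, a myosin kinase of smooth muscle, had a log2 fold change of 0.44 (limma adjusted p = 0.186). The 2 mural genes below 0 were Rgs5, at -0.005, and Tagln, at -0.235 with separate groups. Both are named after their values were seen. The mural groups were separate for 3 higher genes, or 42.9%, and 1 lower, or 14.3%, against 10.4% of all genes each way. Platelet markers, 3 of 8 measured, summed to 13.1 to 18.6 CPM in overexpression and 12.0 to 15.4 CPM in controls, with a median of 0.17, and macrophage markers, 6 of 18 measured, summed to 21.9 to 25.1 CPM in overexpression and 23.0 to 24.2 CPM in controls, with a median of 0.04. Neither list had a call by limma, edgeR or DESeq2, and 1 platelet gene, Itga2b, and 0 macrophage genes had an unadjusted p under 0.05. The log2 fold changes were 0.41 for Itga2b and 0.17 for Pf4, and 0.23 for Cx3cr1 and -0.18 for Csf1r. The part of blood and mural RNA in the endothelial differences was not tested, and Tal1, Lmo2, Fli1, Hhex and Cd34 are known in blood cells as well.

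Ectoderm markers stood lower in the overexpression pools. All 19 ectoderm markers had a fold change below 0, with 6 called lower by limma, Epcam, Cdh1, Trp63 and Fgf8 among them, a median of -0.40 and sums of 567 to 629 CPM in overexpression and 781 to 832 CPM in controls. Limma called 0.680% of all genes lower, and 1.35% with somite number. The count of ectoderm markers called lower was 6 by edgeR, 8 by DESeq2 and 7 by limma with somite number. Epcam, a surface protein of epithelia, averaged 50.2 ± 2.91 CPM in overexpression and 74.9 ± 2.84 CPM in controls (limma adjusted p = 0.00332). Fgf8, the ligand of the apical ridge, averaged 56.5 ± 10.2 CPM in overexpression and 94.6 ± 5.35 CPM in controls (limma adjusted p = 0.0114). The mesenchyme list had 12 of 12 measured, 8 above 0, a median of 0.09 and 0 calls by limma and edgeR, with 1 higher call by DESeq2 and 3 higher and 2 lower at an unadjusted p under 0.05. Its smallest p belonged to Prrx1 and Hoxa13, with log2 fold changes of 0.37 and -0.78 (limma adjusted p = 0.13 and 0.185). With somite number limma called 1 of the list higher, Prrx1 (adjusted p = 0.0152), and 2 lower, Hoxa13 (adjusted p = 0.00316) and Hoxd13 (adjusted p = 0.000371), the last named after its values were seen. The part of the lower ectoderm share in the endothelial differences, on a scale where levels are relative to the library, was not tested.

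**Figure D4:**
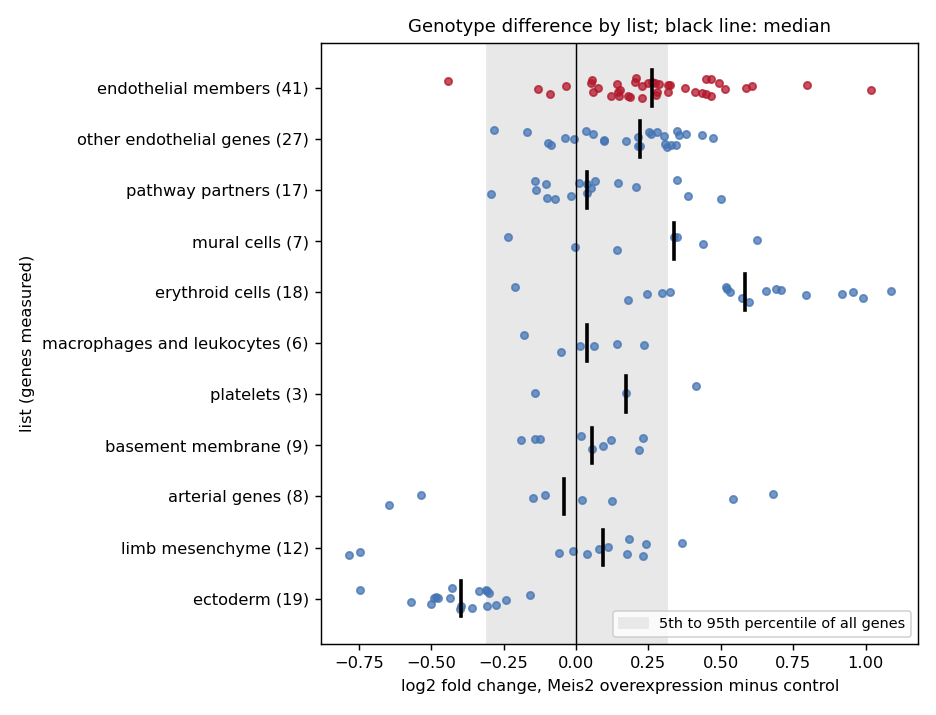
Log2 fold changes of the measured genes of 11 lists, Meis2 overexpression minus control; each point is a gene, the black line is the list's median, the number in brackets is the genes measured, and the grey band spans the 5th to the 95th percentile of all genes. The medians are 0.26 for the endothelial genes, 0.22 for other endothelial genes, 0.58 for erythroid cells and -0.40 for ectoderm.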

How the data were processed

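PolyA RNA went into TruSeq RNA v2 libraries per the labels, a kit that does not mark strand. Per the submitters' processing notes, cutadapt 1.2.1, RSEM 1.17 and edgeR were used with build NCBIM37. The authors deposited CPM on an effective library size; no filter is stated, but in every gene at least 3 libraries reached 2.004 CPM. All deposited CPM values were whole multiples of 1 step per library (100% within 0.001 of a whole read), so counts were recovered. On those, edgeR 4.0.16 called 88 genes higher and 83 lower, and DESeq2 1.42.0 was a further alternative.

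The genotype test was limma 3.58.1 under R 4.3.3 (lmFit, then eBayes with a mean trend, two-sided) on log2(CPM + 1), genotype only, Benjamini-Hochberg over all 12065 genes at 0.05; a filter of 1 CPM in 3 libraries removed 0 genes. Slopes came from genotype plus somite number, with an interaction added. The code was tested on simulated data. Exon overlaps and lengths came from GENCODE M21, a later build than that of the data, and copies from blastn 2.17.0. Replicates differed beyond counting noise. Floors cover counting error only. Values per library are given for Kdr, Pecam1, Cdh5, called genes and the 2 smallest p-values of each role, means for the other members, and, of each other list, up to 4 called genes or else the 2 smallest p-values are named. The members and lists were chosen with earlier results of these data known.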

Additional observations from a re-analysis of the deposited data

How the results depend on the processing

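The median log2 fold change of the endothelial genes kept its sign under every alternative run, with values from 0.19 with a pseudocount of 5 to 0.28 without a 39-somite library, against 0.26. The count of genes called higher, 3, became 1 with a filter of 5 CPM in 3 libraries, where Stab2, Sox7, Esm1, Hhex and Sox17 are not tested, and 0 to 2 when a library was left out. It became 5 higher and 1 lower with somite number as covariate, and likewise 5 and 1 with edgeR and somite number, an alternative chosen after seeing the data. The replicate block gave 5 and 1 too, and 134 higher and 124 lower over all genes. Same-numbered pools did not deviate together for pools 1 and 2, with correlations of 0.03 and -0.15, while pool 3 had 0.38. Only pool 3 of the overexpression group correlated best with its own number. DESeq2 called 1 lower, Lmo2, and 1 slope, while leaving out a library gave 0 to 1 slopes called. Over all genes, 95 higher and 82 lower calls became 44 and 42 with robust moderation and no trend, 144 and 146 with DESeq2, 177 and 163 with somite number, 173 and 161 with edgeR and somite number, and 26 to 76 and 28 to 86 with a library left out. The 31 rising and 12 falling slopes of all genes became 0 and 0 with robust moderation or without the genotype term, 51 and 23 with DESeq2, and 1 to 46 and 0 to 25 with a library left out; the 0 called interactions became 3 with DESeq2, 2 of them higher and 1 lower. With a library left out, values changed sign at their extremes for Emcn (-0.02 to 0.14), Sox18 (-0.286 to 0.027), Apln (-0.049 to 0.20), Erg (-0.01 to 0.10) and Icam2 (-0.098 to 0.051), none of them called. The interaction was not refitted without a library. The causes were not tested. Depth limits Stab2 most, at 6 to 9 reads in controls.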
